A study of Rattus norvegicus with 17 samples.

Results

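Gene expression in CD4+ T cells was followed across 3 dietary doses of vitamin D, taken in order from 0 IU to 2 IU to 10 IU. All 17 arrays of the series entered, and each of 10879 genes out of 14506 with a symbol of its own was tested for a slope over dose. The doses were scored 0, 1 and 2, so that a slope is the mean change in log2 expression per dose step. A second test asked whether the 2 IU mean lay off the midpoint of the other diets, and each gene was sorted by whether its 3 diet means ran in order or the 2 IU mean was the highest or the lowest.

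The donors were age-matched female rats of the Dark Agouti (DA) strain. All of them, also those on the regular diet, had been immunized with myelin oligodendrocyte glycoprotein (MOG) to start experimental autoimmune encephalomyelitis (EAE), an autoimmune disease of the central nervous system used as a model of multiple sclerosis. From their inguinal lymph nodes CD4+ T cells were taken 7 days after immunization by fluorescence-activated cell sorting, and 250 ng of RNA per sample was amplified. The diet was vitamin D deprived (0 IU, 5 arrays), regular (2 IU, 6 arrays) or vitamin D supplemented (10 IU, 6 arrays), and was fed from 5 weeks before immunization onward. The feed amount behind an IU value, the ages and the number of animals per sample were not given in the sources used here. The samples hold a single sex and time point and no unimmunized rat. The labels call the samples of a diet biological replicates without saying how they were handled, so the p-values cover only the variation among these samples.

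Vitamin D is converted in liver and kidney to the hormone calcitriol, which binds the vitamin D receptor, a nuclear receptor that pairs with the retinoid X receptor and acts on transcription. Activated T cells carry the receptor, and in EAE calcitriol is known as a compound that restrains disease. CD4+ T cells that meet antigen in a draining lymph node grow, divide and take on helper programmes such as Th1, Th2 and Th17, and protein-folding chaperones, ribosomes, mitochondria and the cell division machinery are made in larger amounts as they do so.

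Values are on a log2 scale throughout, and q is the Benjamini-Hochberg adjusted p from limma over all genes tested, with a threshold of 0.05. The markers of sorted CD4+ T cells were bright: the 14 tested identity genes averaged 10.2 to 10.4 on the 0 IU arrays, 10.2 to 10.4 on the 2 IU arrays and 9.99 to 10.2 on the 10 IU arrays. Of 8 tested B cell markers 6 rose with dose, 1 fell and 1 did not pass, and their mean ran from 6.07 to 6.23, from 6.01 to 6.35 and from 6.23 to 6.54 in the same order. The 15 macrophage, monocyte and neutrophil markers averaged 6.28 to 6.46, 6.23 to 6.40 and 6.42 to 6.54, with 3 rising, 1 falling and 11 not passing. Of 11 stromal and endothelial markers 6 rose, and their mean ran from 6.40 to 6.47, from 6.48 to 6.54 and from 6.54 to 6.68. Of other tested markers, 1 of 5 for plasma cells, 1 of 8 for dendritic cells and 1 of 8 for CD8 T and NK cells rose. Of 2 red blood cell markers 0 rose. Among all genes tested 18.1% rose and 27.8% fell. After quantile normalization or cyclic loess 5 B cell, 1 macrophage, monocyte and neutrophil and 3 stromal and endothelial markers rose. Of all 10879 genes 1381 and 1269 rose after these normalizations. Cd79a and Pax5 were not analysed here. In such bulk samples, fewer cells of a type and less RNA per cell cannot be told apart.

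The arrays themselves also changed with dose. The spread of an array, which is the standard deviation of its log2 values, was 2.027 to 2.073 at 0 IU, 2.001 to 2.063 at 2 IU and 1.908 to 1.972 at 10 IU. The 10 IU arrays had the narrowest values and overlapped with no other array, while the 0 IU and 2 IU arrays overlapped with each other. The slope of the spread was -0.0549 per step (two-sided exact permutation p = 9.44e-06 over 5717712 assignments), and it was -0.059 to -0.0505 with each array left out in turn. Supplemented replicates 2 and 5 had the smallest spread. Across the 10879 genes, which are not independent replicates, the slope had a correlation of r = -0.555 with mean level: bright genes tended to have negative slopes and dim ones positive slopes.

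**Figure D1:**
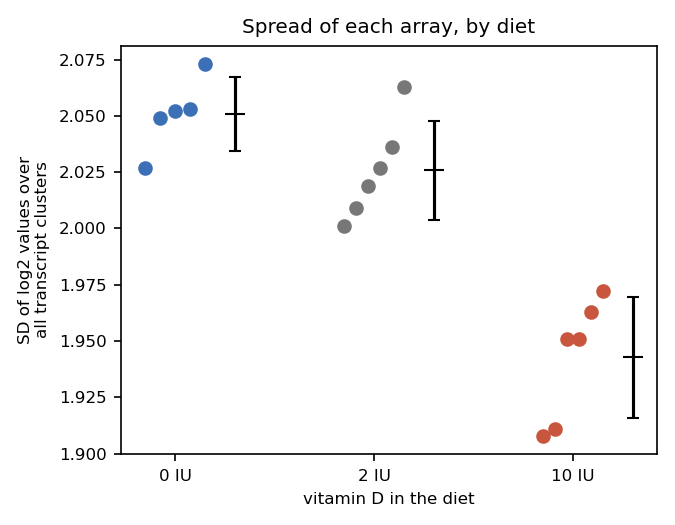
Spread of each array, the SD over all its transcript clusters (vertical axis, log2 units), by vitamin D in the diet (horizontal axis); points are single arrays and bars are the mean and SD of a diet. The 6 arrays at 10 IU, between 1.908 and 1.972, lie below all 11 arrays of the other diets.

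The slope passed in 4984 of 10879 genes (45.8%), of which 1965 rose (18.1%) and 3019 fell (27.8%). Among these called genes the diet means ran in order in 4254 (2491 falling, 22.9% of genes tested, and 1763 rising, 16.2%). In the other 730 (6.71%) the 2 IU mean was an extreme, the highest of the 3 in 501 (4.61%) and the lowest in 229 (2.10%). Among all genes tested, called or not, the means were in order in 6515 (59.9%), rising in 3270 (30.1%) and falling in 3245 (29.8%), and the 2 IU mean was highest in 2184 (20.1%) and lowest in 2180 (20%). Large slopes went downward: 57 of the 2491 ordered falling genes were more than 2-fold lower at 10 IU than at 0 IU, against 0 of the 1763 ordered rising ones. The balance of rising and falling calls moved with the genes or clusters that entered. With no filter on dim genes 2625 rose and 2984 fell of 14506, and with the lowest 50% left out 745 rose and 2933 fell of 7253. Over all 29214 transcript clusters 5680 rose and 4837 fell.

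The parts of the change that fell to each step are given as values, since the test for unequal steps passed in 157 falling genes and 1 rising gene of the 4254 ordered ones. In the falling set the step from 0 to 2 IU held a median of 30.5% of the whole change (quartiles 17.2% and 47.2%), with median steps of -0.125 and then -0.272. In the rising set it held 36.1% (quartiles 22.3% and 51.9%), with median steps of 0.0929 and 0.158. The first step was the larger one in 547 falling genes (22.0%) and 489 rising genes (27.7%). The steps share the 2 IU arrays, and the second spans more IU than the first.

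With each array centred on its own median, the slope passed in 4673 genes, 590 rising and 4083 falling, and the median slope of all genes moved from 0.000616 to -0.0523. When the spread of each array stood beside dose in the fit, 7 genes passed (1351 at an unadjusted p below 0.05), named here after their values were seen. Of these, 5 were among the 4984 and kept their direction: the heat shock genes Hsph1 and Dnaja1, the co-chaperone gene Cacybp, Hexim1, which restrains transcription elongation, and Cxcr4. Or1o11b and Mid1ip1 had not passed before. Spread and dose move together across the arrays and cannot be told apart where they do. The slopes of Ndufa9, Cd4, Lck, Stat3, Cd40lg, Isg15, Cd22, Cdc37, Ube2w, Il9, Cyp27b1, Blk, Prss3bl1, Dppa3, Atp5mg, Mrpl23 and Pfdn5, genes described below, changed sign in that fit. With the mean of the B cell markers in the fit 2742 genes passed, and with that of the macrophage markers 3189.

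Heat shock chaperone genes fell from dose to dose. Their proteins fold newly made chains and hold damaged ones. Hsp70 proteins work with J-domain partners (the Dnaj genes) and pass clients to Hsp90, and the heat shock factor Hsf1 drives many of the genes in stressed cells. Of 26 tested heat shock chaperone and co-chaperone genes 20 fell, 1 rose and 5 did not pass, beside 27.8% falling among all genes, and their median slope was -0.31 per step. Their mean per array was 9.50 to 9.68 at 0 IU, 9.22 to 9.37 at 2 IU and 8.88 to 9.20 at 10 IU, with no overlap between any of the diets. The median steps were -0.26 and -0.33, with 9 genes lower at the first step and 17 at the second, beside 1.49% and 22.9% of all genes. The median slope was -0.23 after quantile normalization, -0.22 after cyclic loess, -0.37 with median-centred arrays and -0.21 with array spread in the fit. In the same order 18, 17, 21 and 2 of the 26 genes passed as falling, and 4, 4, 0 and 0 as rising.

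Dnajb1, the J-domain partner of inducible Hsp70, stood at 8.59, 9.02, 9.03, 9.39 and 9.57 on the 0 IU arrays. Its lowest, median and highest values were 8.09, 8.21 and 8.50 at 2 IU, and 7.01, 7.76 and 8.24 at 10 IU. Every 0 IU array lay above every array of both other diets, while the 2 IU and 10 IU arrays overlapped. The mean fell from 9.12 ± 0.38 (SD, n = 5) over 8.23 ± 0.15 (n = 6) to 7.67 ± 0.46 (n = 6), a slope of -0.72 (SE 0.09, q = 5.03e-06). Both steps passed (-0.89, SE 0.18, q = 0.0167, then -0.56, SE 0.17, q = 0.0149), and the level at 0 IU was 2.73 times that at 10 IU.

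Dnaja1, a J-domain partner of the constitutive Hsc70, showed the same order with less scatter. The 0 IU arrays held 11.54, 11.55, 11.61, 11.65 and 11.66, the 2 IU arrays 10.95 to 11.17 with a median of 11.05, and the 10 IU arrays 10.52 to 11.01 with a median of 10.69. Again the 0 IU arrays stood clear of all others and the other diets overlapped. The slope was -0.44 (SE 0.04, q = 4.87e-07), with steps of -0.55 (SE 0.07, q = 0.000411) and -0.34 (SE 0.07, q = 0.000921), and both steps passed with any single array left out.

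Hsph1, an Hsp110 protein that recharges Hsp70 with nucleotide, changed almost wholly at the first step. Its 0 IU values were 9.47, 9.53, 9.56, 9.93 and 10.1. The 2 IU arrays ran from 8.68 to 9.03 (median 8.75) and the 10 IU arrays from 8.45 to 8.92 (median 8.61). The 0 IU arrays were apart and the others overlapped. The first step was -0.91 (SE 0.11, q = 0.000124) and held 82.9% of the change, and the second was -0.19 (SE 0.10, q = 0.153). The 2 IU mean lay 0.36 below the midpoint of the other diets (departure -0.36, SE 0.09, q = 0.0231), the one departure that passed in this list; it did not pass without regular replicates 1, 2 or 6.

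The Hsp90 gene Hsp90aa1 fell by 0.48 at the first step (SE 0.10, q = 0.0255) and 0.43 at the second (SE 0.10, q = 0.00206), from a mean of 11.47 to 10.99 and 10.56. Stip1, which links Hsp70 to Hsp90, fell by 0.54 (SE 0.11, q = 0.0163) and 0.38 (SE 0.10, q = 0.00641). The J-domain gene Dnajb4 changed by -0.69 (SE 0.15, q = 0.0248) and -0.46 (SE 0.14, q = 0.0179). Hspd1, the mitochondrial chaperonin Hsp60, had steps of -0.32 (SE 0.08, q = 0.0368) and -0.47 (SE 0.07, q = 5.29e-05). These 4 genes and Dnajb1 and Dnaja1 are the 6 of the list with both steps past the threshold. With 1 array left out in turn, the first step passed in 7 of 17 fits for Hspd1, in 11 for Hsp90aa1, in 14 for Dnajb4 and in 16 for Stip1 and Dnajb1. The arrays without which it was lost were deprived or regular ones for each of these genes.

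Other members passed at 1 step and not at the other. The Hsp90 co-chaperones Fkbp4 and Cdc37, which help mature steroid receptors and kinases, passed at the second step (-0.59, SE 0.11, q = 0.000434, and -0.68, SE 0.13, q = 0.000445) and not at the first (-0.39, SE 0.12, q = 0.0948, and -0.03, SE 0.14, q = 0.948). Chordc1, another Hsp90 partner, did the reverse, with -0.42 (SE 0.06, q = 0.000863) and then -0.09 (SE 0.06, q = 0.211). Hspa8, the constitutive Hsc70, had a mean of 12.58 at 0 IU, 12.33 at 2 IU and 12.35 at 10 IU. Its slope of -0.11 (SE 0.03, q = 0.0104) passed on the deposited values but not after quantile normalization (-0.01, q = 0.814), and it turned to 0.04 after cyclic loess. The transcription factor gene Hsf1 did not pass (slope 0.05, SE 0.04, q = 0.351), while Hsf2 fell (-0.19, SE 0.06, q = 0.0166) with its lowest mean at 2 IU. Values of Fkbp4, Cdc37, Chordc1, Hspa8, Hsf1 and Hsf2 were picked out after they had been seen.

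**Figure D2:**
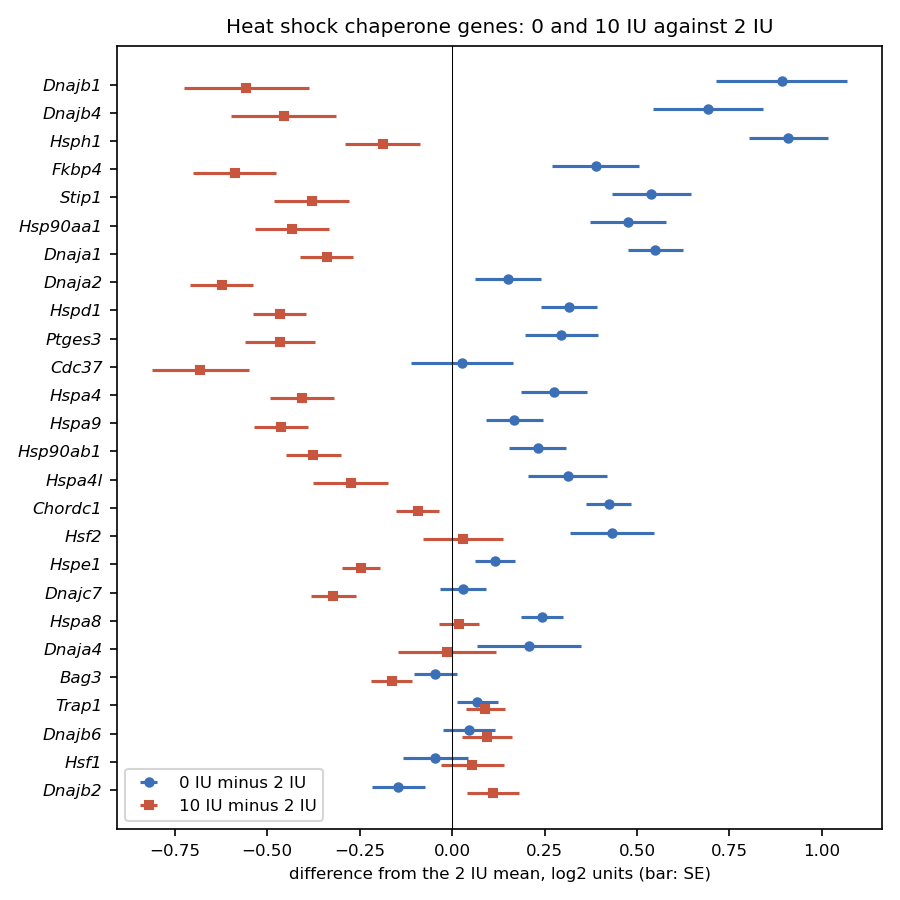
Heat shock chaperone and co-chaperone genes (vertical axis), each with its 0 IU mean (circles) and its 10 IU mean (squares) drawn as the difference from its 2 IU mean (horizontal axis, log2 units; bars are the SE of the difference). Both series share the 2 IU arrays; circles to the right and squares to the left, as for Dnajb1, mean a fall at each step, while Hsph1 has its square close to 0.

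The promoters of 3 of these genes are printed because they hold the heat shock element, the site that heat shock factors bind, and because all 3 genes fell with dose. The windows run from 250 bases before to 50 bases after the gene's start, 300 bases in all, and come from RefSeq on build GRCr8. They are Hsph1 at chr12:10427118-10427417 (plus strand), Dnaja1 at chr5:60638154-60638453 (plus strand) and Hspd1 at chr9:64083988-64084287 (minus strand, shown 5′ to 3′ as transcribed). Capitals mark the heat shock element, searched on both strands as the alternating units GAA, TTC and GAA with NN between neighbours, which occurs once each in Hsph1 and Dnaja1 and in 2 overlapping matches in Hspd1:
Hsph1: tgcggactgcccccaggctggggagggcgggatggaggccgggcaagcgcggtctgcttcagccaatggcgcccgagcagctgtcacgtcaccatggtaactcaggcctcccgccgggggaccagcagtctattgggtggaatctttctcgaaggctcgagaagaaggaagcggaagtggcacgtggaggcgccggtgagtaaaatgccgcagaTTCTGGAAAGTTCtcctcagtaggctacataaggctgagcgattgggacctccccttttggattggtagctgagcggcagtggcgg
Dnaja1: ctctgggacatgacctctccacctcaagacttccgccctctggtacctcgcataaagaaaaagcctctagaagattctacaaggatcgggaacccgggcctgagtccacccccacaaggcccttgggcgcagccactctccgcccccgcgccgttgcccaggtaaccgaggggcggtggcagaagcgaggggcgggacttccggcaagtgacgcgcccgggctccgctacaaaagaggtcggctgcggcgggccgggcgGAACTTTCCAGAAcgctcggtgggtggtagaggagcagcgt
Hspd1: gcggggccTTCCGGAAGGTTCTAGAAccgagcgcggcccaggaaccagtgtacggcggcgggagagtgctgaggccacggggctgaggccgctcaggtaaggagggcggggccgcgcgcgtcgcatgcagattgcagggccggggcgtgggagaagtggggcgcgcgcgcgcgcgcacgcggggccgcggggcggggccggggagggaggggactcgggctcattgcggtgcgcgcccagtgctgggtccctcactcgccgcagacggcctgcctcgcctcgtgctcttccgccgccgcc

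This motif was found in 40 of the 9024 tested genes with a promoter in the table (0.443%) and in 6 of 22 heat shock list genes with one (27.3%). The 6 were Hsph1, Dnaja1, Hspd1, Hspe1, Chordc1 and Hspa8. Dnajb1, which had the steepest slope of the list, and Stip1 and Fkbp4 had a window without the motif. For Dnajb4 and Hsp90aa1 there was no window. Hspd1 and its partner Hspe1, the Hsp10 gene, lie head to head, and their windows share 211 bases, so they do not count as separate sequences. Of the 40 genes 21 fell with dose and 7 rose, beside 27.8% falling and 18.1% rising among all genes tested. The 6 heat shock list genes are among the 21. Whether the motif goes with the slope was not tested. Among the 51 genes with a promoter that fell at each step, 3 held it (5.88%): Dnaja1, Hspd1 and Cct4. A match is a description of the letters in the window.

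Chaperones of the endoplasmic reticulum and genes of the unfolded protein response, which fold and quality-check secreted and membrane proteins, fell as well. Of 25 tested genes 18 fell (72.0%, beside 27.8% of all genes), 0 rose and 7 did not pass, with a median slope of -0.28. The median steps were -0.15 and -0.31. At the first step 0 genes passed, where 0.184% of all genes were higher and 1.49% lower. At the second 16 were lower and 1 was higher, beside 22.9% and 10.8% of all genes. Dnajb9, a J-domain partner of BiP, had 0 IU values of 9.00, 9.14, 9.46, 9.77 and 9.79, 2 IU values of 8.73 to 9.23 (median 9.03) and 10 IU values of 7.73 to 9.11 (median 8.25). All neighbouring diets overlapped. Its slope was -0.59 (SE 0.09, q = 3.83e-05). The disulfide isomerase P4hb (-0.35, SE 0.04, q = 3.67e-06), the BiP partner Dnajb11 (-0.39, SE 0.05, q = 4.18e-06) and Atf4, a transcription factor of the stress response (-0.25, SE 0.03, q = 4.18e-06), also fell.

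Each step passed in the same direction in 61 genes (0.561%), 56 falling (0.515%) and 5 rising (0.046%). Beyond the chaperones, the falling set holds Nck1, an adaptor that ties the T cell receptor to actin. Nck1 was 8.56, 8.57, 8.60, 8.62 and 8.73 on the 0 IU arrays, 7.76 to 8.36 at 2 IU (median 8.09) and 7.14 to 7.83 at 10 IU (median 7.67). The 0 IU arrays lay above all others and the other diets overlapped slightly. The slope was -0.51 (SE 0.05, q = 8.20e-07), with steps of -0.55 (SE 0.10, q = 0.00962) and -0.47 (SE 0.10, q = 0.00076). Map2k1, the kinase MEK1 of the Ras pathway, fell by 0.24 per step (SE 0.03, q = 6.09e-06), and Sos1, the exchange factor that loads Ras, by 0.33 (SE 0.04, q = 1.46e-06, chosen after its values were seen).

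Also in this set were Nsmce3, a subunit of the SMC5/6 complex that guards chromosomes during repair (slope -0.65, SE 0.06, q = 4.87e-07), and Txnl1, a thioredoxin-like protein of the proteasome (-0.52, SE 0.05, q = 4.87e-07). Tob1, an anti-proliferative protein of quiescent T cells, had a slope of -0.45 (SE 0.05, q = 1.46e-06). The proteasome lid-base subunit Psmd1 (-0.41, SE 0.05, q = 2.86e-06) and the chaperonin subunit Cct8 (-0.43, SE 0.04, q = 1.01e-06) fell at each step too. The count of 61 rests on the first step, where few genes passed (20 higher, 0.184%, and 162 lower, 1.49%, against 1173 higher, 10.8%, and 2488 lower, 22.9%, at the second). Those 182 first-step calls were 40 after quantile normalization, 84 after cyclic loess, 889 with array weights and 33, 46 and 51 without deprived replicates 6, 2 and 4. They were 42, 68, 79 and 83 without regular replicates 6, 5, 1 and 4, and 102 to 104 without deprived replicates 3 or 5 or regular replicate 2. The count of 61 was 3 after quantile normalization and 12 after cyclic loess, of which 2 and 7 were among the 61. It fell to 8 without deprived replicate 6, 12 without deprived replicate 4, 14 without deprived replicate 2, 9 without regular replicate 6 and 11 without regular replicate 5. Dnaja1, Nck1, Hexim1 and Cacybp passed both steps with any single array left out. Of the other genes named here, Map2k1 kept both in 12 of 17 such fits, Sos1 in 10, Txnl1 in 9, Nsmce3, Tob1 and Cct8 in 8 and Psmd1 in 7.

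**Figure D3:**
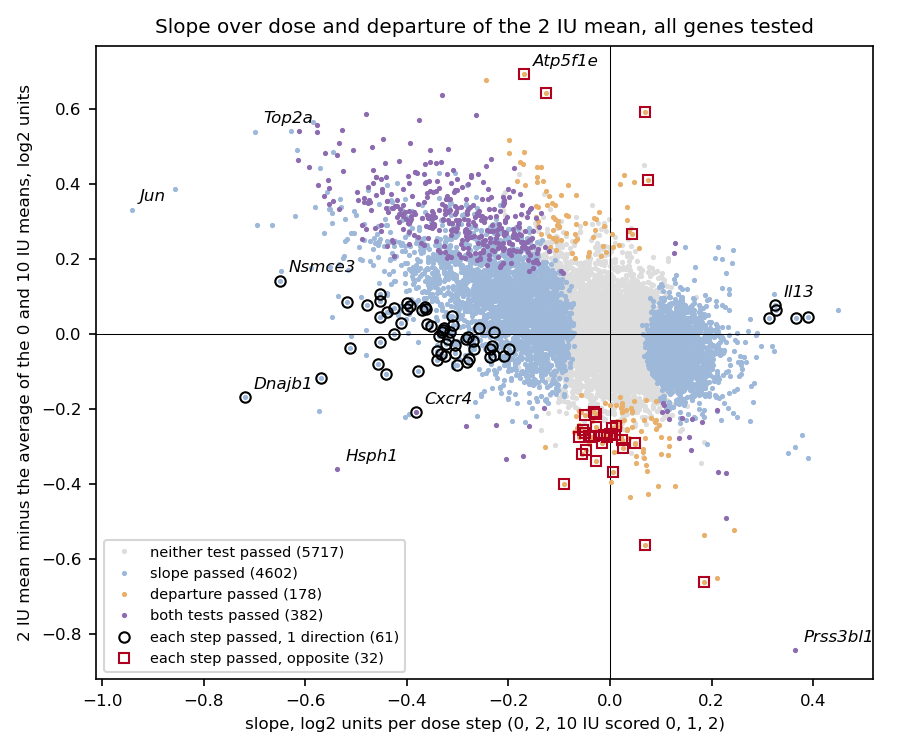
Each point is 1 of 10879 genes, by its slope over dose (horizontal axis, log2 units per step) and by the 2 IU mean minus the average of the 0 and 10 IU means (vertical axis, log2 units), coloured by which test passed. Circles mark the 61 genes that passed at each step in 1 direction, which lie close to the horizontal zero line, and squares the 32 that passed in opposite directions; the cloud of falling genes lies mostly above the line, where the 2 IU mean is nearer to the 0 IU mean.

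Among signalling and activation genes, Cxcr4, the receptor for the chemokine CXCL12, was 9.51, 9.58, 9.64, 9.64 and 9.90 at 0 IU, 8.96 to 9.11 at 2 IU (median 9.06) and 8.70 to 9.00 at 10 IU (median 8.91). The 0 IU arrays were apart, and the first step of -0.60 (SE 0.07, q = 0.000124) held 76.8% of the change. The second step also passed (-0.18, SE 0.07, q = 0.0481), but in 5 of the 17 fits that left out 1 array, whereas the first passed in all 17. It was lost without any 1 of deprived replicates 2, 5 and 6, regular replicates 1 to 5 and supplemented replicates 1, 2, 3 and 5. Cd69, an early activation marker that holds T cells in the node, was 10.34, 10.43, 10.62, 10.73 and 10.81 at 0 IU, 9.83 to 10.14 at 2 IU (median 9.97) and 9.53 to 10.01 at 10 IU (median 9.75), again with the 0 IU arrays apart. Its first step was -0.62 (SE 0.09, q = 0.00102) and its second -0.19 (SE 0.09, q = 0.0926).

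Tsc22d3 (GILZ), a target of the glucocorticoid receptor, likewise passed at the first step and not at the second. Its values were 8.80, 8.95, 8.99, 9.19 and 9.20 at 0 IU, 8.24 to 8.68 at 2 IU (median 8.33) and 7.81 to 8.55 at 10 IU (median 8.17). The first step was -0.63 (SE 0.11, q = 0.00505) and the second -0.19 (SE 0.10, q = 0.153). Among 22 glucocorticoid receptor and target genes 12 fell (54.5%, beside 27.8% of all genes), 1 rose and 9 did not pass (median slope -0.13). At the first step 4 passed as lower, beside 1.49% of all genes: Tsc22d3, Cxcr4, the stress gene Ddit4 (-0.55, SE 0.08, q = 0.000988) and the interleukin 7 receptor gene Il7r (-0.24, SE 0.06, q = 0.0491). This step of Il7r passed in 4 of 17 fits with 1 array left out, and was lost without any single deprived or regular array or supplemented replicates 4 or 6. Ddit4 and Il7r had their lowest mean at 2 IU, and their slopes did not pass after quantile normalization; that of Il7r, -0.10 on the deposited values, was then 0.01, and on the deposited values it did not pass without deprived replicate 6. Fkbp5, another classical target, moved at the second step instead (-0.55, SE 0.11, q = 0.0005, after -0.16, SE 0.11, q = 0.519).

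The immediate early genes are switched on within minutes of T cell receptor signalling. Of 28 tested 12 fell (42.9%, beside 27.8% of all genes), 1 rose and 15 did not pass. At the second step 10 were lower, beside 22.9% of all genes, and at the first Cd69 alone was, beside 1.49%. Jun, a subunit of the transcription factor AP-1, had the steepest slope of any ordered gene, -0.94 per step (SE 0.15, q = 5.86e-05). It was 8.59, 8.66, 8.79, 9.79 and 9.86 at 0 IU, 8.13 to 8.90 at 2 IU (median 8.58) and 6.32 to 8.63 at 10 IU (median 7.26). Neighbouring diets overlapped and the 10 IU arrays were widely scattered. The steps were -0.60 (SE 0.30, q = 0.313) and -1.26 (SE 0.28, q = 0.00166). Fos, Dusp1 and Rgs2 had second steps of -0.77 (SE 0.21, q = 0.00779), -0.91 (SE 0.19, q = 0.00107) and -0.98 (SE 0.26, q = 0.00578), and none of the 3 passed at the first.

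Genes of growth and division were among those that fell at the second step. Of 36 mitosis genes 26 had a falling slope (72.2%, beside 27.8% of all genes), 0 rose and 10 did not pass. None passed at the first step (0 of 36), where 0.184% of all genes were higher and 1.49% lower. At the second step 24 were lower, beside 22.9% of all genes, and the median steps were -0.08 and -0.39. Top2a, which untangles replicated chromosomes, was 7.45, 8.42, 8.79, 9.32 and 9.38 at 0 IU, 8.06 to 9.21 at 2 IU (median 8.55) and 6.75 to 8.15 at 10 IU (median 7.08). The 2 IU arrays lay within the range of the 0 IU arrays, and the first step held 10.4% of the change (slope -0.70, SE 0.16, q = 0.00154). The spindle factor Tpx2 had a slope of -0.63 (SE 0.13, q = 0.000629). Of 43 replication and G1/S genes 24 fell, 1 rose and 18 did not pass, with median steps of -0.03 and -0.28. The replication clamp Pcna, with a slope of -0.53 (SE 0.06, q = 2.80e-06), was one of those that fell.

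The proteasome, the chamber that degrades tagged proteins, had 32 of 35 subunit genes falling (91.4%, beside 27.8% of all genes), 0 rising and 3 not passing. This was the largest falling share of the 29 lists on the deposited values. Its array means lay above the median level of all genes tested, 7.07, and bright genes tended to have negative slopes. With the lowest 50% of genes by level left out, 2933 of 7253 genes fell and 745 rose. The part of level in the falling shares of the lists was not tested. After quantile normalization and after cyclic loess 22 of the 35 fell (median slopes -0.13 in both, after -0.24), beside 29 and 30 of the 36 mitosis genes. Its median steps were -0.03 and -0.42, and the mean per array was 9.52 to 9.69, 9.47 to 9.70 and 8.93 to 9.25. Of 67 respiratory chain and ATP synthase genes 46 fell, 0 rose and 21 did not pass, with median steps of -0.01 and -0.38. After either of these normalizations 25 fell and 1 rose, and the median slope went from -0.195 to -0.0819 and -0.0726. Their array means were 9.37 to 9.60, 9.40 to 9.67 and 8.99 to 9.27, so that the 0 IU and 2 IU arrays overlapped in both lists and the 10 IU arrays lay below. The complex I subunit Ndufa9 was 9.42 to 9.56 at 0 IU, 9.25 to 9.65 at 2 IU and 7.87 to 8.80 at 10 IU, with 4.53% of the change in the first step (slope -0.61, SE 0.09, q = 3.75e-05). Its 2 IU mean lay 0.54 above the midpoint (departure 0.54, SE 0.11, q = 0.00753).

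Of 68 cytosolic ribosomal protein genes 53 fell (77.9%, beside 27.8% of all genes) and 15 did not pass, with a median slope of -0.15. This median was -0.05 after quantile normalization (21 falling, 4 rising) and turned to 0.00542 after cyclic loess (11 falling, 10 rising). Rpl6 (-0.40, SE 0.05, q = 8.49e-06) and Rpl4 (-0.23, SE 0.03, q = 4.52e-06) were among those that fell. Ribosomal protein genes have many near-identical pseudogenes, so their probes may read more than 1 copy. Of 23 glycolysis genes 16 fell, 1 rose and 6 did not pass (median slope -0.14), and 10 fell under either normalization (median -0.09). Pgk1, which makes ATP in glycolysis, was 9.89 to 10.14 at 0 IU, 9.52 to 9.88 at 2 IU and 8.43 to 9.34 at 10 IU, with no overlap between any of the diets and a slope of -0.62 (SE 0.07, q = 2.86e-06). Of 23 cholesterol and fatty acid synthesis genes 12 fell, 2 rose and 9 did not pass (median slope -0.10), led by Fdps, which makes farnesyl diphosphate (-0.48, SE 0.07, q = 1.81e-05).

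**Figure D4:**
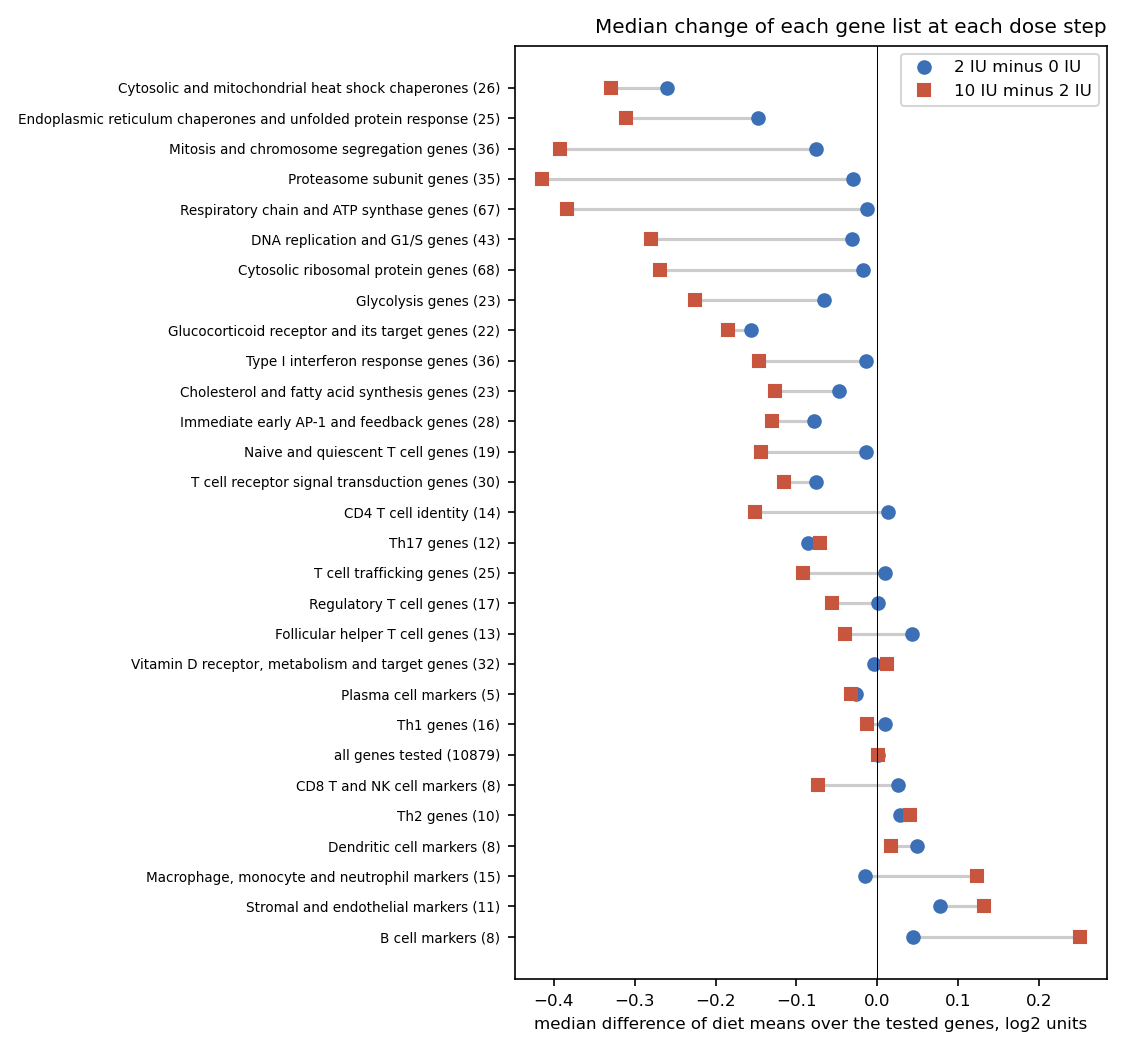
Median difference of diet means over the tested genes of each list (number in brackets) at the first step, 2 minus 0 IU (circles), and at the second, 10 minus 2 IU (squares), on a log2 axis. Heat shock chaperones, glucocorticoid target genes and endoplasmic reticulum chaperones (first step -0.26, -0.156 and -0.147) are among several lists with both marks on the left. Proteasome, respiratory and ribosomal genes have the circle near 0. After cyclic loess the median slope of the ribosomal list turns to 0.00542, and those of the T cell receptor, naive and CD4 identity lists turn above 0 as well.

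T cell identity and T cell receptor signalling genes fell in part. Among all genes 27.8% fell and 18.1% rose on the deposited values. After quantile normalization 1991 of the 10879 genes fell and 1381 rose, and after cyclic loess 2040 fell and 1269 rose. Of 14 identity genes 7 fell and 7 did not pass (median slope -0.09), but after quantile normalization 2 fell and 4 rose (median 0.02) and after cyclic loess 1 fell and 4 rose (median 0.04). Cd4 was 10.04, 10.04, 10.16, 10.19 and 10.34 at 0 IU, 10.09 to 10.25 at 2 IU (median 10.14) and 9.01 to 9.88 at 10 IU (median 9.71). The 10 IU arrays lay below all others, and the first step was 0.01 (SE 0.11, q = 0.986), so its slope of -0.30 (SE 0.07, q = 0.00128) reflects the second. The receptor subunit Cd3d (-0.21, SE 0.04, q = 8.76e-05) fell as well, though not after cyclic loess (q = 0.0779), and the kinase gene Lck (-0.21, SE 0.05, q = 0.00113) passed on the deposited values but not after quantile normalization (q = 0.0887). Of 30 T cell receptor signalling genes 15 fell, 2 rose and 13 did not pass (median slope -0.09), while under either of these normalizations 6 fell and 12 rose (median 0.03). Of 19 naive and quiescence genes 10 fell, 2 rose and 7 did not pass, with a median of -0.10; under either normalization 4 fell and 6 rose, with medians of 0.01 and 0.03.

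Among the master regulators of helper programmes, no slope passed for Foxp3 of regulatory T cells (-0.03, SE 0.05, q = 0.623), Tbx21 of Th1 cells (0.06, SE 0.04, q = 0.231), Gata3 of Th2 cells (0.00435, SE 0.05, q = 0.948) or Bcl6 of follicular helper cells (-0.03, SE 0.04, q = 0.632). Gata3 was called after quantile normalization (0.13, q = 0.018). The cytokine genes Il17a (-0.04, SE 0.06, q = 0.554), Ifng (-0.01, SE 0.07, q = 0.895) and Il2 (0.01, SE 0.05, q = 0.904) did not pass either. Their diet means ran from 5.42 to 5.82, close to the lowest mean tested, 5.321. Il10 and Csf2 were below the level filter.

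Il13, a cytokine gene of Th2 cells, rose with dose. It was 5.87, 5.92, 5.92, 6.13 and 6.16 on the 0 IU arrays, 6.27 to 6.52 at 2 IU (median 6.40) and 6.38 to 7.04 at 10 IU (median 6.66). The 0 IU arrays lay below all others, and the 2 IU and 10 IU arrays overlapped. The slope was 0.33 (SE 0.05, q = 2.27e-05), with steps of 0.40 (SE 0.09, q = 0.0335) and 0.25 (SE 0.09, q = 0.0361), and the level at 10 IU was 1.58 times that at 0 IU. The slope passed in all 17 fits with 1 array left out, but both steps together in 4. The first step was lost without any 1 of deprived replicates 2, 4 and 6 and regular replicates 1, 2, 4, 5 and 6, and the second without regular replicates 1, 2, 3 or 5 or supplemented replicates 2, 3, 5 or 6. Of 10 tested Th2 genes 3 rose (30.0%, beside 18.1% of all genes), 0 fell and 7 did not pass (median slope 0.04, and -0.00858 with median-centred arrays). The other members that rose were Il24 (0.18, SE 0.04, q = 0.00287, and 0.0736 after cyclic loess) and Il9 (0.10, SE 0.04, q = 0.0417), and Il9 no longer passed after quantile normalization (q = 0.306) or without any 1 of deprived replicates 2 to 5 and supplemented replicates 2, 4, 5 and 6. Of the B cell markers 6 of 8 rose, and of the macrophage, monocyte and neutrophil markers 3 of 15, and their part in the rise of Il13 was not tested.

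In the Th17 list 3 of 12 genes fell (25%, beside 27.8% of all genes) and 9 did not pass. The chemokine receptor gene Ccr6 had 0 IU values of 7.87, 7.91, 7.95, 8.52 and 8.71, 2 IU values of 7.21 to 8.42 (median 7.79) and 10 IU values of 6.88 to 8.21 (median 7.28). Neighbouring diets overlapped widely, and its slope was -0.40 (SE 0.10, q = 0.0041). Stat3, which relays interleukin 6 and 23, fell with a slope of -0.26 (SE 0.06, q = 0.000771). In the Th1 list 5 of 16 fell (31.2%), 1 rose and 10 did not pass, among them Hopx, a survival factor of Th1 effectors (-0.43, SE 0.09, q = 0.000462), and the receptor gene Ifngr1 (-0.25, SE 0.04, q = 4.22e-05). Of 17 regulatory T cell genes 2 fell and 1 rose, and Ctla4 (-0.27, SE 0.11, q = 0.0467) lost its call in 13 of 17 fits that each left out 1 array. Of 13 follicular helper genes 1 fell, Cd40lg, the CD40 ligand that instructs B cells (-0.43, SE 0.07, q = 7.05e-05), and 1 rose.

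Of 25 trafficking genes 7 fell (28%, beside 27.8% of all genes), 1 rose and 17 did not pass. Ccr2, a receptor for inflammatory chemokines, fell (slope -0.51, SE 0.09, q = 0.000203), with steps of -0.52 (SE 0.19, q = 0.164) and -0.51 (SE 0.18, q = 0.0348). Of 36 type I interferon response genes 12 fell (33.3%), 2 rose and 22 did not pass. The antiviral GTPase gene Mx2 was in order (slope -0.40, SE 0.10, q = 0.00367), while the ubiquitin-like Isg15 had its highest mean at 2 IU (8.54, 8.65 and 7.90, slope -0.34, SE 0.10, q = 0.00741).

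Of 32 tested genes of the vitamin D receptor, its metabolism and its targets 5 rose (15.6%, beside 18.1% of all genes), 7 fell (21.9%, beside 27.8%) and 20 did not pass, with a median slope of -0.01, so both shares lay near those of all genes. The means ran in order in 10 rising and 10 falling genes. The receptor gene Vdr was dim and did not pass (means 5.34, 5.30 and 5.45, slope 0.05, SE 0.04, q = 0.245). Cyp27b1, the enzyme that makes calcitriol, was 5.77, 5.78, 5.80, 5.83 and 5.88 at 0 IU, 5.69 to 5.88 at 2 IU (median 5.85) and 5.87 to 6.04 at 10 IU (median 6.00). Its slope of 0.09 (SE 0.03, q = 0.0172) passed, but not after quantile normalization (0.02, q = 0.499). Tnfrsf11b (osteoprotegerin) rose by 0.18 per step (SE 0.03, q = 9.56e-05), Pdia3, a disulfide isomerase also described as a membrane receptor for calcitriol, fell by 0.31 (SE 0.04, q = 1.24e-05), and the chromatin remodeller gene Smarca4 fell by 0.25 (SE 0.05, q = 0.000289). Cyp24a1, the classical target that degrades calcitriol, was below the level filter.

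Genes that rose in order were mostly dim, with a median level of 6.20 against 8.61 for the ordered falling genes. Rarres2, which encodes the chemoattractant chemerin, passed at both steps (0.36, SE 0.07, q = 0.0167, and 0.27, SE 0.07, q = 0.00463). It was 5.45, 5.51, 5.66, 5.67 and 5.78 at 0 IU, 5.91 to 6.00 at 2 IU (median 5.98) and 6.04 to 6.39 at 10 IU (median 6.30), with no overlap between any of the diets. With 1 array left out both steps of Rarres2 passed in 16 of 17 fits. The other genes that rose at each step were Il13, Prp15 and the olfactory receptor genes Or4p19 and Or1f28. Olfactory receptors belong to a large family of similar sequences, so these 2 are uncertain. The steepest ordered rise was that of Sert1 (0.45, SE 0.09, q = 0.000418), and Ube2w, a ubiquitin-conjugating enzyme, rose by 0.39 per step (SE 0.08, q = 0.000732), nearly all of it at the second.

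Markers of other cells were among the rising genes. With array spread in the fit 0 of the B cell, macrophage or stromal markers passed as rising. Cr2, complement receptor 2 of B cells and follicular dendritic cells, was 4.81, 5.12, 5.27, 5.33 and 5.42 at 0 IU, 4.89 to 5.59 at 2 IU (median 5.28) and 5.56 to 6.13 at 10 IU (median 5.92). The first step held 7.52% of its change (slope 0.36, SE 0.07, q = 0.000364). Cd79b, a chain of the B cell receptor, rose (7.00, 7.23 and 7.43, slope 0.21, SE 0.04, q = 0.000439), and Fcrla, Spib, Cd72 and Blk also rose. The call of Blk was lost after quantile normalization (0.06, q = 0.278), cyclic loess (0.05, q = 0.339) and median centring (0.06, q = 0.232), and without any 1 of deprived replicates 3, 4 and 6 or supplemented replicates 2, 4, 5 and 6. Cd22 went the other way (-0.30, SE 0.11, q = 0.0324), and its call was lost without deprived replicate 3 or any of supplemented replicates 1, 2, 4 and 5. Ccl21, the chemokine that stromal cells use to draw T cells into the node, had a slope of 0.22 (SE 0.05, q = 0.00147). It has near-identical copies in rodents, so its probes may read more than 1.

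**Figure D5:**
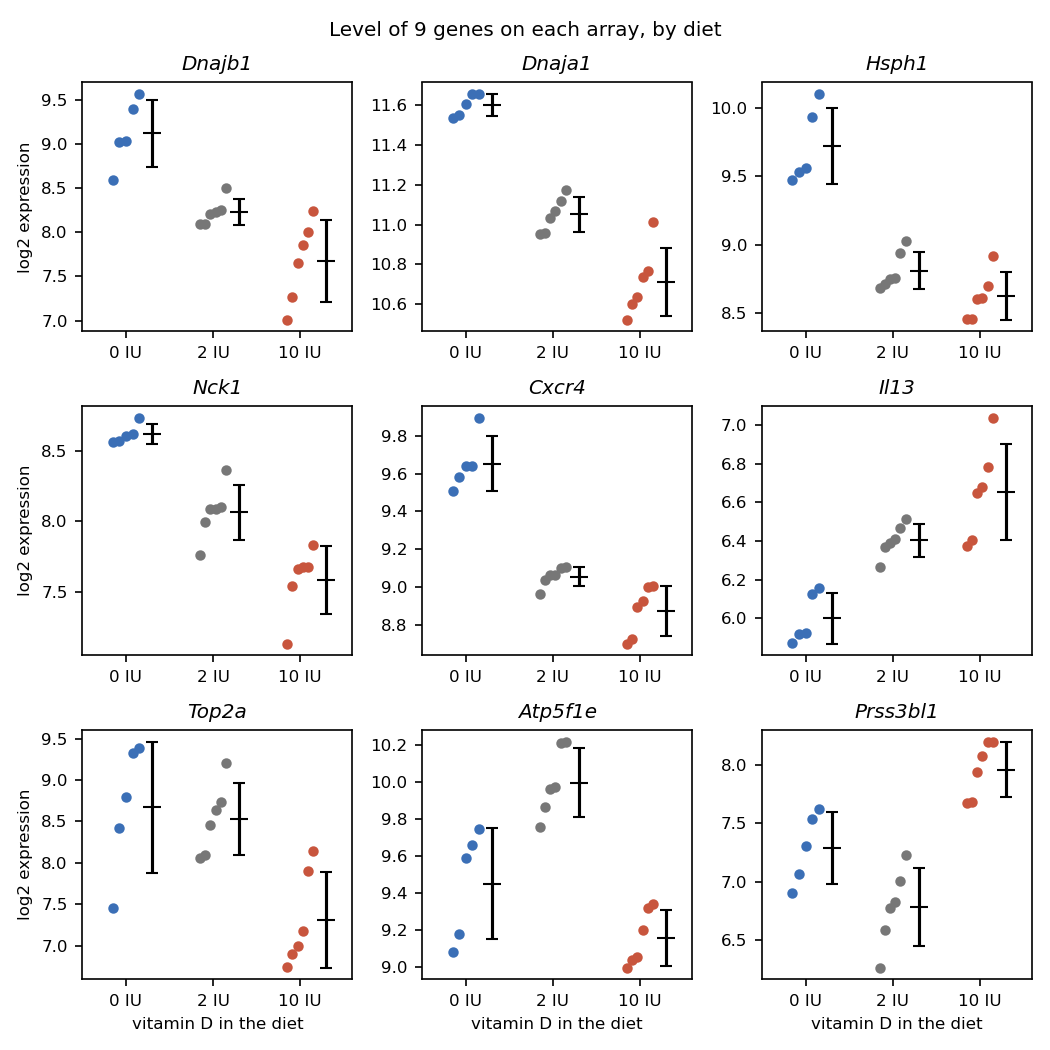
Log2 expression of 9 genes on each array (vertical axes differ between panels) by vitamin D in the diet, with the mean and SD of each diet as a bar. Dnajb1, Dnaja1 and Nck1 step down at both steps, Hsph1 and Cxcr4 drop mainly between 0 and 2 IU, Top2a drops at 10 IU, Il13 rises in its means at each step, and Atp5f1e and Prss3bl1 have their highest and lowest mean at 2 IU.

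A departure of the 2 IU mean from the midpoint passed in 560 genes (5.15%), above it in 435 (4.00%) and below it in 125 (1.15%). In 402 (3.70%) the 2 IU mean was also outside the range of the other 2 means: highest in 281 (2.58%) and lowest in 121 (1.11%). Of these, 204 and 20 also had a slope that passed. The others had ordered means with unequal steps, 157 falling and 1 rising. The count of 560 was 235 without regular replicate 3, 245 without regular replicate 1, 306 without deprived replicate 6, 331 without regular replicate 2 and 364 without deprived replicate 5.

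Several of the genes with the largest upward departures encode mitochondrial proteins. Atp5f1e, the epsilon subunit of ATP synthase, was 9.08, 9.18, 9.59, 9.66 and 9.75 at 0 IU, 9.76 to 10.22 at 2 IU (median 9.97) and 9.00 to 9.34 at 10 IU (median 9.13). Every 2 IU array was above every other array. It rose by 0.55 (SE 0.11, q = 0.0185) and then fell by 0.84 (SE 0.11, q = 8.45e-06), with a departure of 0.69 (SE 0.10, q = 0.000735). Tomm7, of the mitochondrial import pore (0.68, SE 0.11, q = 0.00236), Atp5mg, another ATP synthase subunit (0.64, SE 0.11, q = 0.00321), Mrpl23, a mitochondrial ribosomal protein (0.58, SE 0.10, q = 0.00295), and Pfdn5, a prefoldin subunit that feeds the cytosolic chaperonin (0.57, SE 0.10, q = 0.00321), departed the same way. So did H1f4, a linker histone (0.64, SE 0.09, q = 0.00123), and Mgst2, a microsomal glutathione transferase (0.59, SE 0.13, q = 0.0098). In the respiratory list 27 of 67 genes departed upward and 0 downward, in the ribosomal list 22 of 68, and in the proteasome list 13 of 35, beside 4.00% of all genes. Across the 10879 genes the departure had a correlation of r = 0.326 with mean level. The array means of these lists were all above the median level of the genes tested, 7.07. With array spread in the fit 14 departures passed over all genes. The part of level and spread in these counts was not tested.

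Genes lowest at 2 IU were led by Prss3bl1, a trypsin-like gene. It was 6.90, 7.06, 7.31, 7.54 and 7.62 at 0 IU, 6.26 to 7.23 at 2 IU (median 6.80) and 7.67 to 8.20 at 10 IU (median 8.01). The 0 IU and 2 IU arrays overlapped and the 10 IU arrays lay above both. The departure was -0.84 (SE 0.13, q = 0.00167), and the slope of 0.36 (SE 0.13) also passed (q = 0.0261). That slope did not pass with median-centred arrays (0.31, q = 0.0568) or without any 1 of supplemented replicates 1, 2, 4 and 5, and was -0.16 with array spread in the fit. N5 (-0.66, SE 0.09, q = 0.000523), Kctd4 (-0.65, SE 0.13, q = 0.0064), the potassium channel gene Kcnj13 (-0.56, SE 0.09, q = 0.00295) and the germ cell gene Dppa3 (-0.49, SE 0.08, q = 0.00237) followed. The specificity of the probes for these genes was not tested.

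Both steps passed in opposite directions in 32 genes (0.294%), 27 with the 2 IU mean lowest (0.248%) and 5 with it highest (0.046%). The count of 32 was 11 after quantile normalization, of which 8 were among the 32, and 20 after cyclic loess, of which 10 were. It was 80 with array weights, 0 in limma with array spread in the fit (98 at an unadjusted p below 0.05 in both steps) and 3, 6 and 13 without deprived replicates 6, 2 and 4. Without regular replicates 6, 1, 2, 5 and 4 it was 9, 16, 16, 16 and 18, and without deprived replicate 3 it was 21. The 5 were Atp5f1e, H1f4, Mgst2, Spryd4 and Gtf2a1. Of the 27, 4 are given here, picked out after their values were seen. Usp9x, a deubiquitinase that acts in T cell receptor signalling, was 10.1, 10.11, 10.12, 10.13 and 10.28 at 0 IU, 9.77 to 9.95 at 2 IU (median 9.87) and 9.99 to 10.23 at 10 IU (median 10.06). All 2 IU arrays lay below all others, and the steps were -0.28 (SE 0.06, q = 0.0199) and 0.21 (SE 0.06, q = 0.00678). Lyst, which controls the size of lytic granules, changed by -0.32 (SE 0.07, q = 0.0285) and 0.23 (SE 0.07, q = 0.0151), and the lipid transfer protein gene Vps13a by -0.35 (SE 0.07, q = 0.0148) and 0.20 (SE 0.06, q = 0.0177). Ccl20, the ligand of Ccr6, changed by -0.25 (SE 0.06, q = 0.0495) and 0.18 (SE 0.06, q = 0.0279). With 1 array left out the first step passed in 16 of 17 fits for Vps13a, 14 for Usp9x, 11 for Lyst and 5 for Ccl20.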

How the data were processed

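Expression was measured on Affymetrix whole-transcript arrays, 1 per sample (17). The authors deposited log2 values per transcript cluster, and the submitters' processing notes name RMA and Partek 6.0. The values themselves gave the log base. The probe file, the build and filters were not given in the sources used here. Of 29214 clusters 15310 had 1 gene symbol, 323 several and 13581 none listed, and 15279 were matched by identifier to RefSeq. Each of the 14506 genes was represented by its cluster with the highest mean, and the lowest 25% were left out, keeping 10879 with a mean of at least 5.321.

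Slopes over dose scores of 0, 1 and 2, departures and steps came from limma 3.58.1 (lmFit and eBayes under R 4.3.3; 15 residual degrees of freedom for slopes, 14 for diet means) and were adjusted with Benjamini-Hochberg at 0.05. The fit was tested on simulated data with noise drawn independently for each gene. No change of array spread with dose was simulated, so that run cannot speak to its effect on the calls. The number of arrays limits the precision. The members and the 29 gene lists were chosen with earlier results of these data known, so lists are described by counts and medians with no test of the list. Genes named are the largest slopes and departures, genes with both steps called, up to 3 members of each list with the smallest p, and fixed genes (among them Vdr, Cd4, Foxp3, Cd69, Cxcr4, Tsc22d3 and Hsph1). Others are said to be chosen after their values were seen. This holds also for Fos, Ddit4, Il7r, Fkbp5, Isg15, Mx2, Cd22, Fcrla, Spib, Blk, Hspe1 and Gtf2a1. Alternatives were other scalings (quantile, cyclic loess, median centring), filters, dose scores, covariates, an exact Jonckheere-Terpstra test and each array left out.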

Additional observations from a re-analysis of the deposited data

Results flagged for a closer look

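A sample was picked out where it lay far from the others of its diet for a gene named above. Of 375 groups of arrays looked at, 19 held such a sample, while chance gives about 1 in 20 (19 groups here). Supplemented replicate 3 was the highest of its diet for Rgs2 (9.044), Tob1 (7.182), Pcna (10.26) and Gtf2a1 (9.918). Supplemented replicate 2 was lowest for Mrpl23 (7.69) and highest for Vdr (5.777), and supplemented replicate 1 was lowest for Il24 (5.141). Among the 0 IU arrays, deprived replicate 2 was lowest for Ifng (5.06) and Il24 (4.868), and deprived replicate 3 was highest for Pgk1 (10.14) and Isg15 (9.026) and lowest for Dppa3 (6.816). Deprived replicate 5 was lowest for Ddit4 (8.633). Deprived replicate 6 was lowest for Stat3 (8.691) and Ccl21 (5.459) and highest for Usp9x (10.28). Of the 2 IU arrays, regular replicate 1 was highest for Bcl6 (7.779) and lowest for Or1o11b (5.724), and regular replicate 4 was highest for Il9 (6.353).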

How the results depend on the processing

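The slope passed in 3372 genes after quantile normalization, in 3309 after cyclic loess and in 10517 of 29214 transcript clusters when all were tested. It passed in 3317 genes without the supplemented arrays of smallest spread (replicates 2 and 5, chosen after seeing the data). With 1 array left out it passed in 4194 to 5139. With array spread, macrophage markers or B cell markers in the fit the counts were 7, 3189 and 2742. Departures passed in 14, 286 and 959 genes in these fits, in 1004 at a threshold of 0.1 and in 235 to 796 with 1 array left out. Both steps passed in 1 direction in 3 genes after quantile normalization, 12 after cyclic loess, 257 with array weights, 0 in limma with array spread in the fit (143 at an unadjusted p below 0.05 in both steps), 21 with macrophage markers, 130 at a threshold of 0.1 and 8 to 87 with 1 array left out (14, 25, 12, 30 and 8 without deprived replicates 2, 3, 4, 5 and 6, and 21, 31, 19, 11 and 9 without regular replicates 1, 2, 4, 5 and 6). The share of genes with ordered means was 50.1%, 49.35% and 58.36% after quantile normalization, cyclic loess and median centring. Mean correlations of deviations between arrays of the same replicate number were -0.135 to 0.121. They were not compared with arrays of different numbers, so whether the numbers mark pairs or batches was not tested. With the replicate block 5176 slopes, 494 departures and 54 genes with both steps passed. Of 124 named values 107 passed, 99 of them also with any single array left out. A named value here is the slope of a gene or, for genes picked for it, the departure. Step calls are not in this count, and many of them were lost more easily. With 1 array left out the first step passed in 4 of 17 fits for Il7r, 5 for Ccl20, 6 for Cct4 and 7 for Hspd1 and Psmd1. Calls were lost for 11 values after quantile normalization, 13 after cyclic loess, 4 with median centring and 85 with array spread in the fit, besides those that changed sign. In the last of these slopes reversed for Ndufa9 (0.00421), Cd4 (0.143), Lck (0.103), Stat3 (0.0282), Cd40lg (0.0153), Isg15 (0.015), Cd22 (0.269), Cdc37 (0.0868), Mid1ip1 (0.352), Ube2w (-0.0932), Il9 (-0.0595), Cyp27b1 (-0.0352) and Blk (-0.087). Il7r reversed after quantile normalization (0.0103) and cyclic loess (0.0365), and Hspa8 after the latter (0.0434). The cause was not tested.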

Other observations

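The SMC5/6 complex, a ring that holds chromosomes during repair, fell in 6 of its 7 tested members, chosen after their values were seen. Among all genes 27.8% fell. Smc5 fell by 0.36 per dose step (SE 0.04, q = 1.16e-06) and Smc6 by 0.32 (SE 0.04, q = 2.86e-06), and with Nsmce3 each passed at both steps (in 8, 11 and 8 of 17 fits with 1 array left out for Smc5, Smc6 and Nsmce3). Nsmce1 (-0.46, SE 0.08, q = 7.11e-05), Nsmce4a (-0.20, SE 0.04, q = 0.000283) and Eid3 (-0.17, SE 0.04, q = 0.0034) fell as well. Nsmce2, the SUMO ligase of the complex, did not pass (-0.05, SE 0.04, q = 0.298). The CCT chaperonin, which folds actin and tubulin, fell in all 8 subunits looked at, beside 27.8% falling among all genes. Most of these subunits were chosen after their values were seen. Slopes ran from -0.50 (SE 0.08, q = 2.69e-05) for Cct7 to -0.16 (SE 0.04, q = 0.0013) for Cct6a, and Cct3 and Cct6a no longer passed after quantile normalization. Cct4 and Cct8 passed at both steps (in 6 and 8 of 17 fits with 1 array left out), whereas Cct5 changed at the second (-0.72, SE 0.08, q = 3.27e-06, after -0.10, SE 0.09, q = 0.622).

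Gene size and level differed between the kinds of dose pattern, as values with no test. The median genomic span, from the RefSeq annotation, was 19.4 kb over all tested genes. It was 7.4 kb for the 281 genes that departed with the 2 IU mean highest and 45.0 kb for the 121 with it lowest. Ordered falling genes had a median of 27.0 kb and ordered rising genes one of 15 kb. The median level was 8.86 and 7.76 for the departing groups, 8.61 for falling, 6.20 for rising and 7.07 for all genes.

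Prss58, Prss59, Prss3bl1 and 1810009J06Rikl follow each other directly in the RefSeq annotation, among V segment genes, and all 4 were lowest at 2 IU. Their departures were -0.43 (q = 0.0285), -0.52 (q = 0.0291), -0.84 (q = 0.00167) and -0.43 (q = 0.0487). Of these genes 1810009J06Rikl was chosen after its values were seen, and the others were named for the size of their departure. Their shared order thus partly reflects how they were picked. The call of Prss58 was lost without deprived replicate 6 or regular replicates 1, 2 or 3, and that of Prss59 without deprived replicates 4 or 6 or regular replicates 2, 4 or 6. That of 1810009J06Rikl was lost without any 1 of the regular arrays, of deprived replicates 2, 3, 4 and 6 or of supplemented replicates 1, 2, 5 and 6, and also with the replicate block. The nearby Prss3b was lowest at 2 IU too but did not pass (-0.24, q = 0.17). These genes are a family of similar sequences, so their probes may read more than 1 of them.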
